A study of Mus musculus with 5 samples.

Results

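The collagen genes were taken as every gene on the array whose annotated symbol was built like *Col1a1*, that is Col, a type number, a and a chain number. This rule gave 42 genes of 18193 named on the array, with 82 probe sets of 45037. A probe set is the group of short oligonucleotides that reads 1 transcript region, and a gene can have several. The genes were 11 fibrillar collagens, 8 basement membrane collagens and 23 others, and 30 of the 42 were among the 12935 genes bright enough to be tested. Of these 30, 24 were lower in optic nerves kept in L-LY29 than in nerves kept in H-LY29, 1 was higher (*Col25a1*) and 5 did not pass the test. Over all tested genes 46.6% were lower and 27.1% higher. *Col11a1* and *Col12a1*, 2 of the 24, were bright enough through their H-LY29 signal alone. The lower genes included all chains of the fibrillar types I and III, 2 of 3 chains of type V and every tested basement membrane collagen.

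The nerves came from C57BL/6 mice of postnatal day 35 to 45 and were kept for 3 days in organotypic culture with LY294002, an inhibitor of PI3K. By the labels, the 3 L-LY29 arrays had 0.5 µM and the 2 H-LY29 arrays 50 µM, but the study's methods give a higher concentration for L-LY29 in adult nerves, which was not settled here. The titles name LY294002 and the treatment entries LY295002, taken here as the same compound. Per the study's methods the nerves were removed with the retina intact and cleaned of arachnoid membrane. The study's methods give a total of nerves and mice for transcriptomics but not how many were pooled on each array, and the p-values therefore cover the spread from array to array and no more. With saline arrays not analysed here, neither dose is set against untreated nerve, and a negative difference means a lower signal in L-LY29.

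Collagens are secreted proteins in which 3 chains wind into a stiff helix. Fibrillar collagens (types I, II, III, V, XI, XXIV and XXVII) assemble into the fibres of connective tissue, and type IV forms the sheet-like network of basement membranes. In the optic nerve, fibrillar collagen lies in the meningeal sheath and the connective tissue around vessels, and basement membranes separate glia from both. Meningeal and perivascular fibroblasts, pericytes and endothelial cells are known sources, while oligodendrocytes make little.

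Promoter sequences were read from RefSeq (GRCm38.p6) for members at both ends of the response: the 250 bases before the annotated start of *Col1a2*, *Col3a1* and *Col5a1*, fibrillar chains that were lower in L-LY29, of *Col8a1*, which had the largest difference outside the fibrillar class, and of *Col25a1*, the member that was higher. They are shown 5′ to 3′ on the strand of the gene. Capitals mark 3 textbook promoter elements searched on both strands: the CCAAT box (CCAAT or ATTGG), the GC box (GGGCGG or CCGCCC) and the TATA box (TATAAA or TTTATA). No marked elements overlap in these windows. The table holds windows for 33 of the 42 genes, and *Col1a1* is not among them.
Col1a2 (chr6:4505368-4505617, plus strand): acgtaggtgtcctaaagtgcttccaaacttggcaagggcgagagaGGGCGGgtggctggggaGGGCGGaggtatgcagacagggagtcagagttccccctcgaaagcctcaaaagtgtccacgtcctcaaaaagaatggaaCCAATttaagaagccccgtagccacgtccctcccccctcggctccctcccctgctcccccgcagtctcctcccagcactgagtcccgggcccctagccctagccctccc
Col3a1 (chr1:45311288-45311537, plus strand): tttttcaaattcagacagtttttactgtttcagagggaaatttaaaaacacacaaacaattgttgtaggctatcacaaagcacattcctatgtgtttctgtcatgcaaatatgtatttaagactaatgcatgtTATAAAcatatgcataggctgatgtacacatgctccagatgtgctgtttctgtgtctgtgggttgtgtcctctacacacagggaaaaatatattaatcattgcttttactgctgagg
Col5a1 (chr2:27886175-27886424, plus strand): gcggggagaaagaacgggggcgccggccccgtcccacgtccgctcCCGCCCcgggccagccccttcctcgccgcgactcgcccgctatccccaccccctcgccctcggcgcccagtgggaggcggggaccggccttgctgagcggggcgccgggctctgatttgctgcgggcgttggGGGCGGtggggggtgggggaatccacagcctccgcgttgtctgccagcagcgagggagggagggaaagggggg
Col8a1 (chr16:57754738-57754987, minus strand): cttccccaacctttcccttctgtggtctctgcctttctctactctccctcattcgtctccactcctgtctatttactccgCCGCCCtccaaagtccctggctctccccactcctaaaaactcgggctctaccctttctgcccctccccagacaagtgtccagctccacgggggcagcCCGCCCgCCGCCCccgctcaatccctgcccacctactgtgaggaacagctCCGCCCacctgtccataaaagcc
Col25a1 (chr3:130180595-130180844, plus strand): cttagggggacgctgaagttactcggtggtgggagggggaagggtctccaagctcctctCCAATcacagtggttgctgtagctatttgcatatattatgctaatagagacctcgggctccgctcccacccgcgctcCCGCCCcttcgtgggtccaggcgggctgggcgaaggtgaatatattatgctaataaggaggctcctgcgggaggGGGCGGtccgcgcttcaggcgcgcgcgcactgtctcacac

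The marked elements differed among the genes that were lower. *Col1a2* held a CCAAT box 109 bases before the start and GC boxes at 188 and 205 bases. *Col3a1* held a TATA box at 117 bases and neither of the others, and G and C made up 35.2% of its window against 76.4% in that of *Col5a1*. *Col5a1* held GC boxes at 73 and 205 bases, and *Col8a1* held 4, at 23, 66, 73 and 170 bases. *Col25a1*, which moved the other way, held a CCAAT box at 191 bases and GC boxes at 40 and 114. Over the 36 collagen windows (some genes have several starts), 13 held a CCAAT box (36.1%), 21 a GC box (58.3%) and 5 a TATA box (13.9%). Of all 32851 windows of this length, 33.8% held a CCAAT box, 32.7% a GC box and 12.4% a TATA box. These are matches of letters, not sites, and the arrays did not measure binding.

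The collagen genes were lower in L-LY29 as a class. Values are the authors' log2 signals, and a gene was called at a Benjamini-Hochberg adjusted p under 0.05 by limma over all tested genes. The 24 lower members are 24 of 30, where 46.6% of all tested genes were lower, and the 1 higher member is 1 of 30, where 27.1% of all tested genes were higher. The median difference of the 30 genes was −1.68, against −0.26 over all tested genes. The signal limit acted on the mean of all arrays, so that a gene dim in L-LY29 could pass through H-LY29 alone, as 2 of the 24 lower collagens and 451 of the 6032 lower genes in all did. With no signal limit 23 of 42 collagens were lower and 3 higher, with a median of −0.86, where 35.6% of all 18193 genes were lower. Quantile normalization moved the median of all genes to 0.06 and the median of the collagens to −1.35, and equal array medians moved them to −0.05 and −1.47. Genes higher in L-LY29 went from 36.8% of all called genes to 52.1% and 47.2% under these scalings, and the collagen counts became 19 lower and 4 higher, and 22 lower and 4 higher. For 25 of the 30 collagens every L-LY29 array lay below both H-LY29 arrays, which held for 51.8% of all tested genes. For 3 every L-LY29 array lay above both, which held for 4043 of the 12935 tested genes. In whole nerves, fewer cells of a type and less RNA per cell cannot be told apart.

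**Figure D1:**
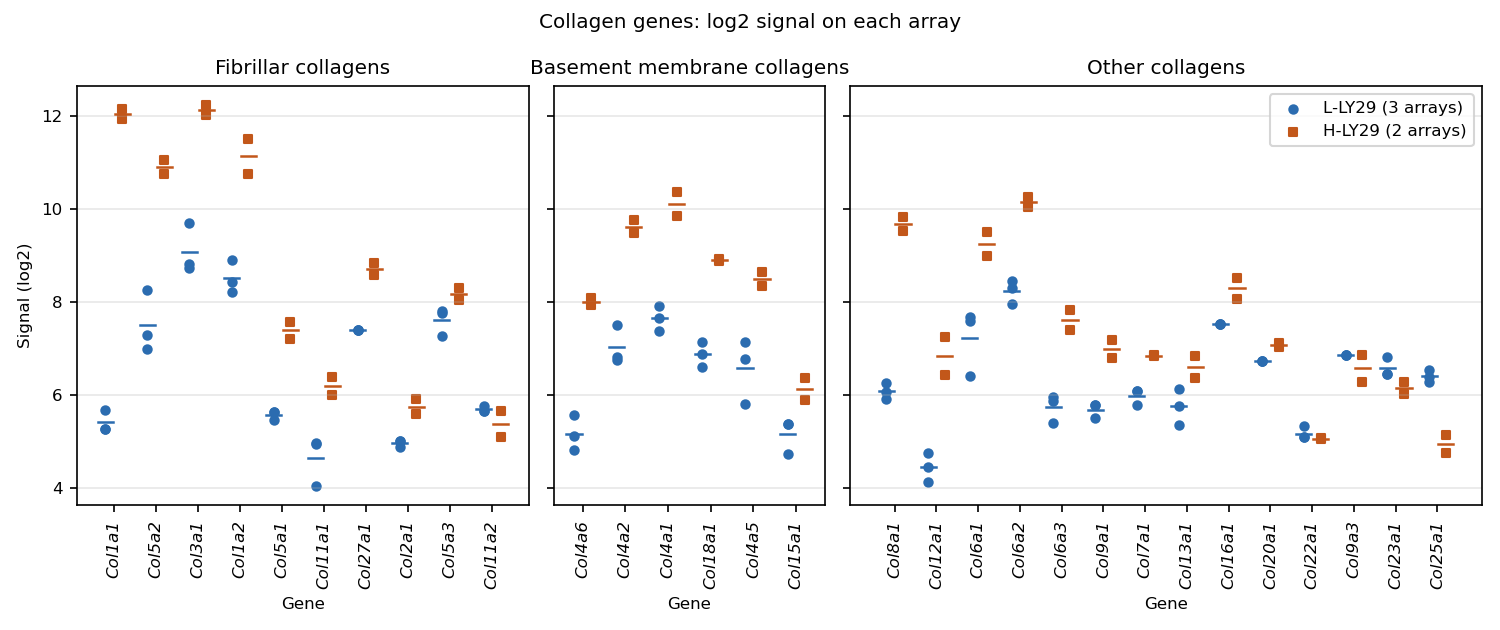
Log2 signal of the 30 tested collagen genes on each array (circles, 3 L-LY29 arrays; squares, 2 H-LY29 arrays; lines, group means), by class and ordered by difference. In 25 genes all circles lie below both squares. *Col25a1*, at the far right, shows the reverse, as do *Col22a1* and *Col23a1*, which were not called. Heights are not comparable between genes.

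Type I collagen, the main fibre-forming collagen of connective tissue, is built from the chains *Col1a1* and *Col1a2*. *Col1a1* had signals of 5.28, 5.28 and 5.69 in L-LY29 and 12.16 and 11.94 in H-LY29. The dose groups lay far apart, with a difference of −6.64 (standard error 0.17, adjusted p = 4.04e-05), which is 99.6-fold on the linear scale. That fold is only a rough size. The L-LY29 signals lay near the medians of those arrays (5.33 to 5.35), and 2 of the 3 were equal to the last digit. Its second probe set read 4.10 to 4.78 in L-LY29 against 9.93 to 10.66 in H-LY29, a difference of −5.81. The L-LY29 mean there was 4.48, below the signal limit, so this size is rough as well. *Col1a2*, the partner chain, had 8.23, 8.44 and 8.91 in L-LY29 and 11.51 and 10.77 in H-LY29, with a difference of −2.61 (standard error 0.30, adjusted p = 0.000992). Its other probe sets differed by −4.76 and −1.23. Both chains were lower on all their probe sets, and probe sets of the same chain differed in the size.

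Type III collagen, which forms fine reticular fibres together with type I, consists of 3 copies of the *Col3a1* chain. *Col3a1* had 8.74, 8.83 and 9.71 in L-LY29 and 12.24 and 12.03 in H-LY29, a difference of −3.05 or 8.27-fold (standard error 0.32, adjusted p = 0.000731). L-LY29 replicate 3 was the highest of its dose and still lay below both H-LY29 arrays. The second probe set of *Col3a1* differed by −4.73. In the RefSeq annotation *Col5a2* is the neighbour of *Col3a1*, and it had the second largest fibrillar difference, −3.39.

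Type V collagen is a minor component inside type I fibres that limits their width, and 2 of its 3 chains passed the test. *Col5a1* had 5.63, 5.46 and 5.63 in L-LY29 and 7.59 and 7.20 in H-LY29, a difference of −1.82 (standard error 0.15, adjusted p = 0.000319). *Col5a2* had 7.30, 7.0 and 8.26 in L-LY29 and 11.05 and 10.76 in H-LY29 (standard error 0.40, adjusted p = 0.00107). For both chains the groups were clearly apart, and the other probe sets were lower too. That of *Col5a1* at −0.52 lay above the signal limit in both doses, whereas another of *Col5a1* and the second of *Col5a2* averaged 4.22 in L-LY29, near the dimmest signals, and their sizes are not read. *Col5a3* had 7.76, 7.27 and 7.82 in L-LY29 and 8.31 and 8.05 in H-LY29. Its groups did not overlap, but the difference of −0.56 (95% interval −1.09 to −0.03) missed the threshold at an adjusted p of 0.0554. It was called lower under some alternatives, among them a filter at the 60th percentile (adjusted p = 0.0483) and the replicate number as a block (−0.66, adjusted p = 0.0246). Its second probe set, below the signal limit in both doses, was called higher at 0.31. Whether the chains of type V differ from each other in response was not tested.

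The cartilage-type fibrillar chains had smaller differences than those of types I and III. *Col11a1*, tested through its H-LY29 signal alone (means of 4.65 in L-LY29 and 6.20 in H-LY29), differed by −1.54 (adjusted p = 0.0109). Its second probe set was also called lower from a mean of 3.19 in L-LY29, too dim for its size to be read. *Col2a1*, the type II chain, differed by −0.77 (adjusted p = 0.00418). *Col11a2* read 5.67 to 5.76 in L-LY29 against 5.10 to 5.67 in H-LY29, so its groups overlapped, and its difference of 0.31 did not pass. It was called higher under quantile normalization (0.55) and equal array medians (0.53). *Col27a1*, a fibrillar chain with a short helix, was lower by both probe sets, at −1.32 and −1.39. *Col24a1* was at 2.37 to 2.70 on every array and was not tested. In all, 8 of 10 tested fibrillar genes were lower and 0 higher (46.6% and 27.1% of all tested genes), with a median difference of −1.68.

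**Figure D2:**
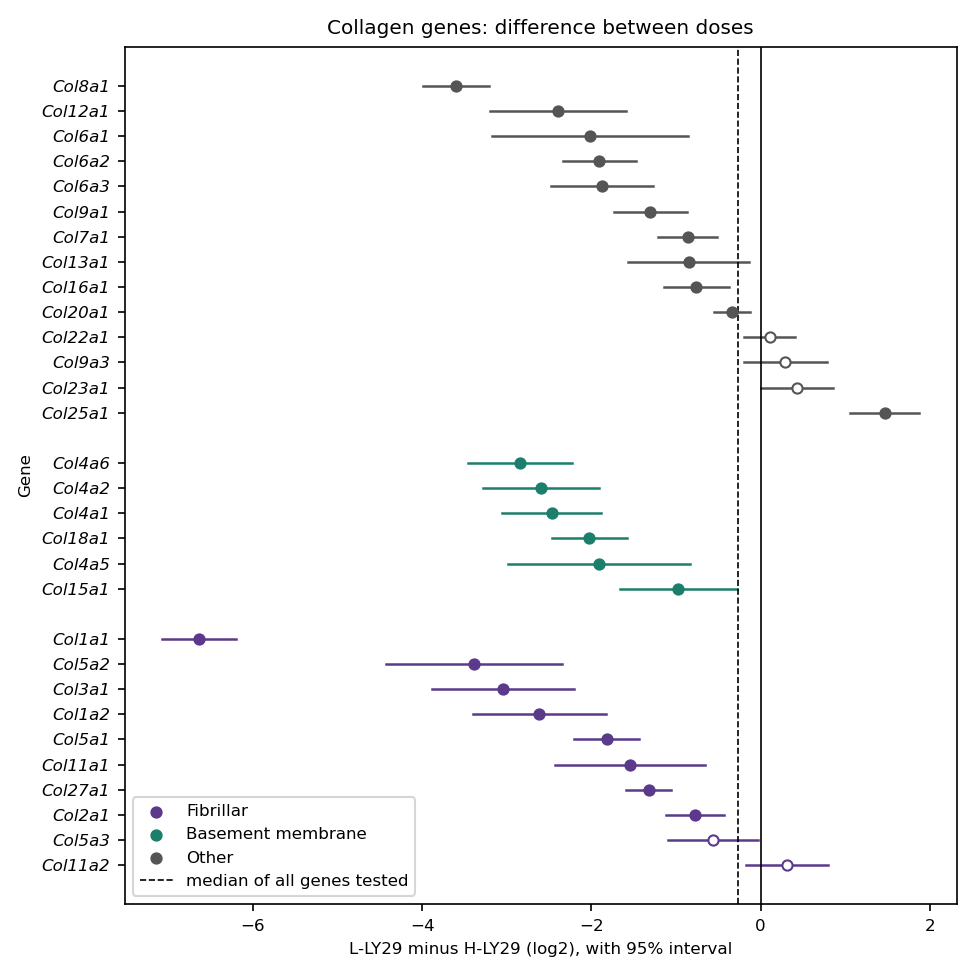
Difference of L-LY29 minus H-LY29 (log2) for each tested collagen gene with its 95% interval, by class. Filled points passed the test, the solid line is 0 and the dashed line is the median of all genes tested, −0.26. *Col1a1* stands apart at −6.64, and *Col25a1* is the filled point above 0.

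All 6 tested basement membrane collagens were lower in L-LY29, where 46.6% of all tested genes were, with a median difference of −2.25. *Col4a1* and *Col4a2* encode the chains of the type IV network found in nearly all basement membranes, and their annotated starts lie 21 bases apart on opposite strands. *Col4a1* had 7.37, 7.65 and 7.92 in L-LY29 and 10.38 and 9.86 in H-LY29, and *Col4a2* had 6.75, 6.83 and 7.50 against 9.76 and 9.48. The differences, −2.47 (standard error 0.23, adjusted p = 0.000452) and −2.60 (standard error 0.27, adjusted p = 0.000640), lay within each other's 95% intervals. On both genes L-LY29 replicate 3 was highest of its dose and H-LY29 replicate 1 was higher than replicate 2. The second probe set of *Col4a1* differed by −1.23.

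*Col4a5* and *Col4a6*, which are also arranged head to head with starts 1343 bases apart, encode chains of the type IV network of specialised basement membranes. *Col4a5* had 6.79, 5.82 and 7.14 in L-LY29 and 8.64 and 8.34 in H-LY29, a difference of −1.91 (standard error 0.42, adjusted p = 0.0100), and its second probe set differed by −1.75. *Col4a6* had 5.12, 4.83 and 5.57 in L-LY29 and 7.94 and 8.09 in H-LY29, a difference of −2.84 (standard error 0.24, adjusted p = 0.000323). The second probe set of *Col4a6* read 5.62 to 6.06 and 6.22 to 6.34, a difference of −0.48 (adjusted p = 0.0566) in the fit over probe sets. Leaving out either H-LY29 array made that dimmer-responding probe set the brighter of the pair, and *Col4a6* then gave −0.42 and −0.54 and no call. The call of *Col4a5* was also lost without H-LY29 replicate 1 (−1.76) or replicate 2 (−2.07). *Col4a3* and *Col4a4*, the head-to-head pair of kidney and lens basement membranes, did not pass the signal limit. Their probe sets lay at 3.05 to 4.39 in L-LY29 and, in H-LY29, at 2.99 to 4.14.

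Types XV and XVIII link basement membranes to the tissue around them, and *Col18a1* also encodes the precursor of endostatin. *Col18a1* had 6.88, 6.61 and 7.14 in L-LY29 and 8.93 and 8.88 in H-LY29, a difference of −2.03 (standard error 0.17, adjusted p = 0.000341), with −1.65 by its second probe set. *Col15a1* had 5.37, 4.74 and 5.37 in L-LY29 and 6.38 and 5.89 in H-LY29. Its groups were apart by less, with a difference of −0.97 (standard error 0.27, adjusted p = 0.0234), and the call was lost without either H-LY29 array (−0.73 without replicate 1, −1.22 without replicate 2) and under quantile normalization (−0.69).

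Among the other collagens 10 of 14 tested genes were lower and 1 was higher (46.6% and 27.1% of all tested genes), with a median difference of −0.86. With no signal limit 9 of 23 were lower and 2 higher, with a median of −0.24. That share of lower genes was near the 35.6% of all genes. The 3 tested transmembrane collagens had 1 lower and 1 higher, with a median of 0.43. Type VI collagen forms beaded filaments next to basement membranes from the chains *Col6a1*, *Col6a2* and *Col6a3*. By the brightest probe set of each, these 3 moved by similar amounts. *Col6a1* had 7.68, 6.41 and 7.61 in L-LY29 and 9.51 and 8.99 in H-LY29, *Col6a2* had 8.46, 7.97 and 8.31 against 10.26 and 10.05, and *Col6a3* had 5.88, 5.40 and 5.97 against 7.84 and 7.41. On each of them L-LY29 replicate 2 was the lowest array. The differences were −2.02 (adjusted p = 0.0108), −1.91 (adjusted p = 0.000379) and −1.87 (adjusted p = 0.00128), and each lay within the 95% intervals of the other two. The second probe set of *Col6a2*, which also passed the signal limit, differed by less, at −1.07. Leaving out H-LY29 replicate 1 or 2 ended the call of *Col6a1*, at −1.76 and −2.28. The alternative chains of type VI stood apart from this: *Col6a4* was not bright enough to be tested by gene, with probe sets called higher at 1.09 and 0.39 from signals of 2.98 to 4.19, and the probe set of *Col6a5* lay at 2.45 to 2.94.

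*Col8a1*, a chain of the hexagonal lattice beneath endothelium and corneal endothelium, had 5.92, 6.06 and 6.25 in L-LY29 and 9.84 and 9.53 in H-LY29. This difference of −3.60 (standard error 0.15, adjusted p = 6.21e-05) was the largest outside the fibrillar class. Its other probe sets gave −0.56, which did not pass, and −1.13. The partner chain *Col8a2* read 3.74 to 3.80 in L-LY29, with 5.75 on H-LY29 replicate 1 and 3.80 on replicate 2, and was not tested. *Col10a1*, the related chain of growth plate cartilage, lay at 4.08 to 4.25.

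Type XII collagen sits on the surface of type I fibres, and its probe sets disagreed. The brightest probe set of *Col12a1* had 4.12, 4.76 and 4.46 in L-LY29 and 7.24 and 6.43 in H-LY29, a difference of −2.39 (standard error 0.31, adjusted p = 0.00151), and it was tested through its H-LY29 signal alone. Another read 5.18 to 5.31 in L-LY29 against 4.60 to 4.96 in H-LY29 and was called higher at 0.44, and a dim one was called higher at 0.53. Without H-LY29 replicate 1 or 2 the probe set with 0.44 stood for the gene, and the difference turned to 0.62 and 0.26. *Col9a1*, a chain of type IX collagen, had 5.78, 5.50 and 5.78 in L-LY29 and 7.18 and 6.80 in H-LY29. It was likewise lower by this probe set (−1.30, adjusted p = 0.00142) and higher by another (1.03). The probe sets do not say which transcript forms of these genes they read in the sources used here.

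The remaining fibril-associated and membrane collagens had small differences or none that passed. *Col16a1* differed by −0.76 and *Col20a1* by −0.34, and each had 1 and the same value on all 3 L-LY29 arrays. Under quantile normalization *Col20a1* turned to 0.20 and *Col16a1* gave −0.26, and neither was called. The call of *Col20a1* was also lost under equal array medians (−0.13) and with the replicate number as a block (adjusted p = 0.143). *Col7a1*, the anchoring fibril chain of skin and cornea, had 6.09, 6.09 and 5.78 in L-LY29 and 6.86 and 6.84 in H-LY29, a difference of −0.86 (adjusted p = 0.00289) that was lost under quantile normalization (−0.39). *Col13a1*, a membrane-bound collagen, differed by −0.85 (adjusted p = 0.0400), and that call was lost without any 1 array other than L-LY29 replicate 1. *Col22a1* (0.11), *Col9a3* (0.29) and *Col23a1* (0.43) were not called. The 2 dimmer probe sets of *Col22a1* were called lower, at −1.51 and −1.20.

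*Col25a1* encodes a membrane collagen made by neurons and best known as a component of amyloid plaques. It had 6.29, 6.54 and 6.40 in L-LY29 and 4.75 and 5.13 in H-LY29, so that every L-LY29 array lay above both H-LY29 arrays. The difference of 1.47 (standard error 0.16, adjusted p = 0.000767) was the only called increase among the 30 genes in the fit as described. Its second probe set lay at 2.73 to 2.84 on every array and did not pass. The members not yet named were all too dim to be tested: *Col14a1*, *Col17a1*, *Col19a1*, *Col26a1* and *Col9a2*. *Col17a1*, a collagen of epithelial hemidesmosomes, lay at 3.17 to 3.65 in L-LY29 against 2.89 to 3.28 in H-LY29.

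Over all 82 probe sets, with no signal limit, 40 were lower, 9 higher and 33 not called, where 30.3% of all probe sets on the array were lower and 28.6% higher. In the fibrillar class 17 of 21 probe sets were lower and 1 higher, and in the basement membrane class 9 of 15 were lower and 1 higher. Among the others 14 of 46 were lower and 7 higher, a share of lower probe sets close to that of the whole array. In 17 genes more than 1 probe set was called, and these were all lower in 14 genes, all higher in 1 (*Col6a4*) and split in 2 (*Col9a1* and *Col12a1*). Of the 9 probe sets called higher, 6 lay below the signal limit, at no more than 4.19 on any array. For comparison, probe sets for bacterial poly-A control RNA reached 4.30 in H-LY29, so differences between such values are not read as folds. Of the 40 probe sets called lower, 7 had an L-LY29 mean no higher than this: 2 of *Col22a1* and 1 each of *Col1a2*, *Col5a1*, *Col5a2*, *Col8a1* and *Col11a1*. Values equal to the last digit on at least 2 L-LY29 arrays occurred at 39 of the 82 probe sets. At 9 of them all 3 L-LY29 values were equal.

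**Figure D3:**
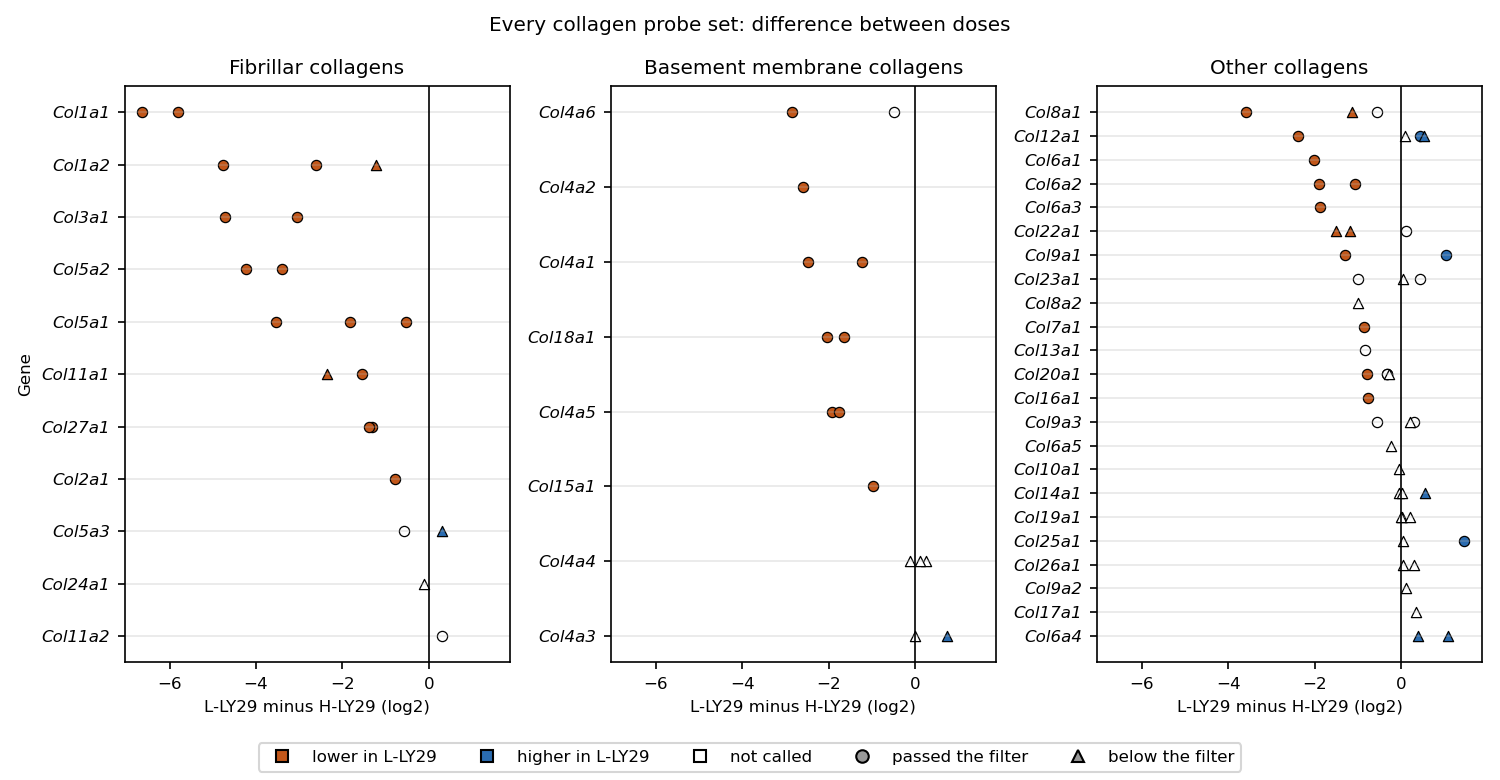
Difference of L-LY29 minus H-LY29 (log2) of each of the 82 collagen probe sets, 1 row per gene, in 3 classes (circles passed the signal limit, triangles lay below it; orange called lower, blue called higher, white not called). Of the fibrillar probe sets in the left panel, 17 of 21 are called lower and 1 higher, and *Col12a1* and *Col9a1* have called probe sets on both sides of 0.

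Arrays of the same dose also differed over the collagens. On 28 of the 30 genes H-LY29 replicate 1 was higher than replicate 2, with a median gap of 0.31, whereas over all tested genes this held for 54.4% with a median gap of 0.03. Among the L-LY29 arrays, replicate 3 was alone the highest on 15 of the 30 genes (28.2% of all tested genes) and replicate 2 alone the lowest on 15 (29.7%). Without H-LY29 replicate 1 the median difference of the collagens was −1.15, against −0.16 over all tested genes. Without H-LY29 replicate 2 it was −1.47, against −0.21. *Col11a1* was a further gene whose call was lost without either H-LY29 array, at −1.34 and −1.74. The 6 genes that lost their call without an H-LY29 array stayed negative, and *Col12a1* turned. The calls of 13 genes held under every alternative that measured them: *Col1a1*, *Col1a2*, *Col2a1*, *Col3a1*, *Col4a1*, *Col4a2*, *Col5a1*, *Col5a2*, *Col6a2*, *Col6a3*, *Col18a1*, *Col25a1* and *Col27a1*.

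Most of the tested genes that process or bind collagen were lower as well. Newly made chains are hydroxylated, folded, exported, trimmed and finally crosslinked outside the cell, and 77 of 82 listed genes of these steps and of collagen binding and breakdown were on the array. Of the 65 tested, 50 were lower in L-LY29, 9 were higher and 6 were not called, with a median difference of −1.38 (lower and higher were 46.6% and 27.1% of all tested genes). Of the 50, 4 passed the signal limit through H-LY29 alone: *Itga1*, *P3h3*, *Lamb2* and *Loxl1*. With no signal limit 51 of 77 were lower and 11 higher, with a median of −1.22, where 35.6% of all genes were lower.

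All 5 tested crosslinking enzymes were lower, with a median of −2.26. *Lox*, the lysyl oxidase that starts crosslinks in collagen and elastin, had 5.58, 5.52 and 5.91 in L-LY29 and 10.82 and 10.34 in H-LY29, a difference of −4.91 (adjusted p = 5.76e-05). *Loxl1* and *Loxl3* of the same family differed by −3.60 and −2.26. *Loxl4* (−0.31) and *Pxdn*, the peroxidase that crosslinks type IV collagen (−0.93), also passed.

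Of the prolyl and lysyl modification genes 11 of 15 were lower and 1 higher. *P3h1*, a prolyl 3-hydroxylase, read 4.78 to 4.88 in L-LY29 against 8.42 to 8.50 in H-LY29, a difference of −3.63 (adjusted p = 4.04e-05). The prolyl 4-hydroxylase subunits *P4ha1* (−1.94) and *P4hb* (−1.15) were lower on all L-LY29 arrays. The lysyl hydroxylase *Plod3* was higher by 0.21 (adjusted p = 0.0488). Of the chaperones and export factors 7 of 8 were lower, among them *Sec13* (−1.35), *Sec23a* (−0.62) and *Fkbp7* (−1.37), and *Mia3*, which loads procollagen into transport carriers, was higher by 0.22. Of 4 tested genes for propeptide removal, *Furin* (−2.93) and the enhancer *Pcolce* (−1.84) were lower, and its paralogue *Pcolce2* was higher at 1.63.

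Among the fibril binding proteoglycans 5 of 6 were lower, with *Fmod* and *Prelp* both at −3.49 and *Dcn* at −1.0, and *Ogn* was higher at 1.24. Of the receptors 5 of 7 were lower. *Itga1*, the alpha chain of a collagen and laminin integrin, had 3.52 to 3.92 in L-LY29 against 7.64 to 8.02 in H-LY29, and its size is not read as a fold because the lower values are near those of the poly-A probe sets. *Mrc2*, which takes up collagen fragments (−3.38), and the receptor kinase *Ddr2* (−3.20) were lower, and the common integrin chain *Itgb1* was higher at 0.71. Collagen degradation genes were lower in 6 of 9 cases, with *Mmp9* at −4.12, *Mmp2* at −2.21 and *Mmp8* at −1.53, while the protease *Ctsk* (0.77) and the inhibitor *Timp2* (0.21) were higher. Of 11 basement membrane partners 9 were lower, among them *Agrn* (−2.15) and *Lamc1* (−2.28). *Lamb2*, a laminin chain, had 3.92 to 4.42 in L-LY29 against 8.16 to 8.42 in H-LY29. *Hspg2*, the perlecan gene (1.22), and *Lama5* (0.81) were higher. Other probe sets of *Hspg2*, *Lama5*, *Timp2*, *Mia3* and *Ddr2* went the opposite way or did not pass.

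**Figure D4:**
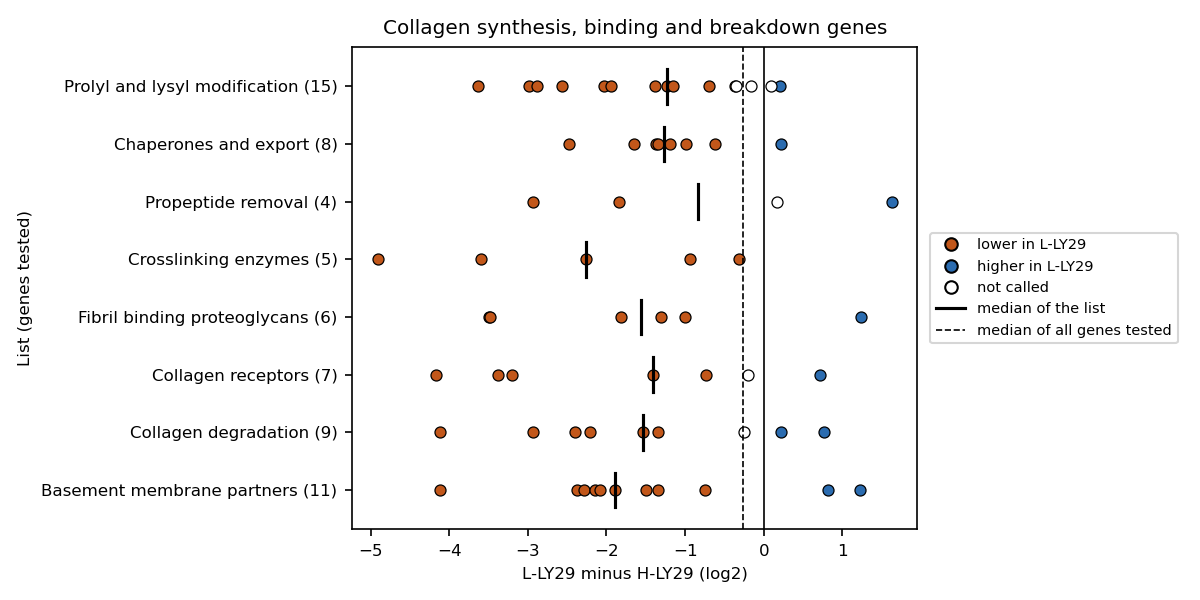
Difference of L-LY29 minus H-LY29 (log2) for 65 tested genes of collagen synthesis, binding and breakdown, 1 point per gene in 8 lists (orange lower, blue higher, white not called; black bar, median of the list; dashed line, median of all genes tested). The crosslinking enzymes lie on the negative side alone, with *Lox* farthest left at −4.91.

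Markers of other cells were read on the same arrays, beside shares of 46.6% lower and 27.1% higher over every tested gene. Of 13 meningeal fibroblast markers 12 were lower and 0 higher, with a median of −2.01, and the summed signal of the list was 12.43 to 12.66 log2 units in L-LY29 against 14.12 to 14.39 in H-LY29. This list shares *Lum* and *Dcn* with the proteoglycans. The summed signal of the 30 collagens was 11.66 to 12.13 and 14.20 to 14.52. Pericyte and smooth muscle markers were lower in 5 of 9 and higher in 1, with a median of −0.97 (summed 11.38 to 12.68 and 13.03 to 13.22). Astrocyte markers were lower in 4 of 7 and higher in 1, with a median of −1.49 (summed 13.97 to 14.22 and 14.29 to 14.37). These shares of lower genes were near that of all genes, and both summed signals were lower on every L-LY29 array. Endothelial markers went the other way, with 5 of 8 higher and 1 lower (summed 10.63 to 11.03 and 10.10 to 10.24). Oligodendrocyte markers, which identify the labelled white matter tract, were bright on every array (summed 15.89 to 16.33), with 6 of 8 higher and 2 lower (*Mog* at −1.13 and *Cldn11* at −0.32), and microglia markers were higher in 5 of 6 and lower in 1 (summed 13.13 to 13.32 and 11.80 to 12.04). Schwann cell markers were higher in 1 and lower in 1 of 3 (summed 10.69 to 10.75 and 11.02 to 11.17), and photoreceptor and retinal neuron markers were lower in 1 of 2 (summed 6.13 to 6.48 and 7.81 to 8.52). Ocular surface epithelium markers were higher in 6 of 7, at 11.53 to 14.17 in L-LY29 against 7.19 to 7.38 in H-LY29. The poly-A control RNA, added before labelling, gave a mean of 9.97 to 10.45 on the L-LY29 arrays and 3.17 on both H-LY29 arrays. The 3′ probe set of actin exceeded its 5′ probe set by 0.39 to 0.48 in L-LY29 and by 0.84 to 0.99 in H-LY29, and that of *Gapdh* by −0.15 to −0.09 and 0.65 to 0.73. The part of these cell types, of the control RNA and of RNA quality in the collagen result was not tested, and array handling and dose cannot be told apart.

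**Figure D5:**
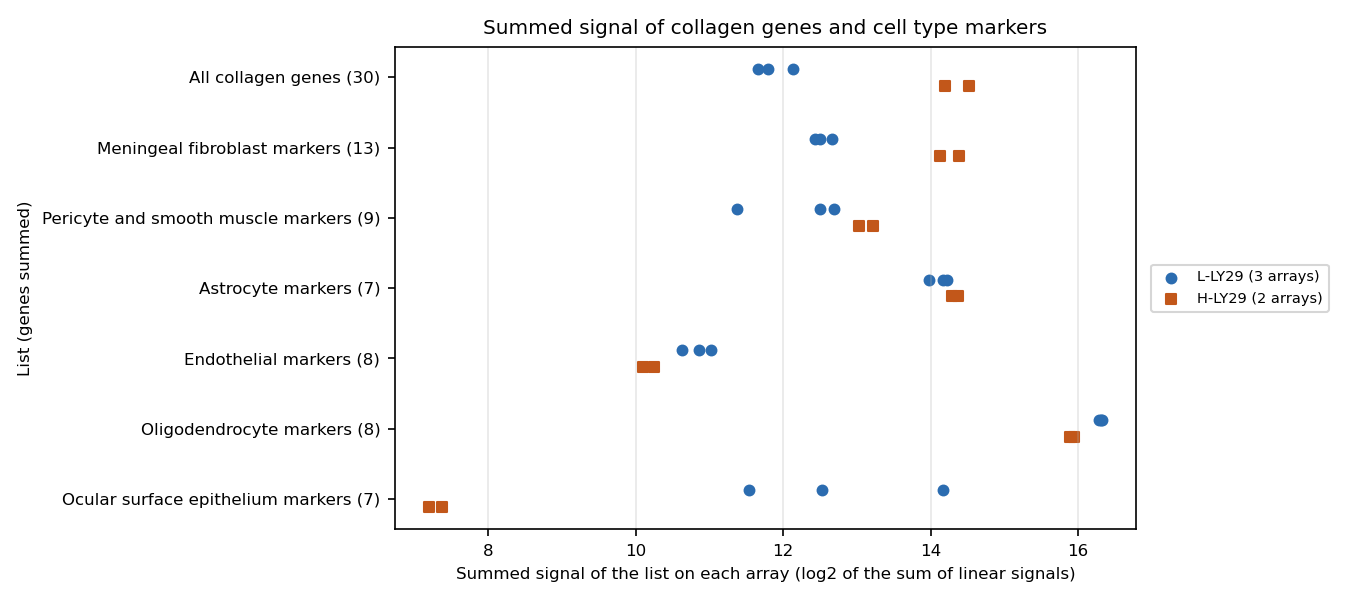
Summed signal (log2 of the sum of linear signals) of the collagen genes and of 6 cell type marker lists on each array (circles, L-LY29; squares, H-LY29). The collagens and the meningeal fibroblast, pericyte and astrocyte markers are lower on all 3 L-LY29 arrays. The endothelial, oligodendrocyte and ocular surface markers are higher there.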

How the data were processed

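RNA of cultured mouse optic nerves was hybridised as biotin-labelled cRNA to 5 Affymetrix mouse arrays, of which 3 were L-LY29 and 2 H-LY29. Per the study's methods the authors used GeneSpring's MAS-5 algorithm for normalisation and deposited log2 signals of 45101 probe sets. Whether that algorithm made the deposited values, and whether both doses were normalised together, was not settled. The 64 control probe sets were left out, and genes were named from 34945 probe sets with 1 gene symbol. Probe sets with a mean under the 40th percentile (4.77) were left out of the test of genes, which kept 27061, and the brightest stood for its gene. Doses were compared on the deposited values with limma 3.58.1 in R 4.3.3 (lmFit, eBayes with an intensity trend, two-sided), checked on simulated data. Drawings used Python 3.11.15 and matplotlib 3.10.9.

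The members, lists and tests were chosen with earlier results of these data known. Every collagen gene is named, with values on each array for types I, III, IV, V, VI, XV and XVIII and in the other families, for the 4 called genes farthest from 0 on either side. Of each processing list, up to 3 called genes with the smallest adjusted p in each direction are named. Alternatives changed the filter, floor, scaling, probe set choice, test and arrays. The number of arrays limits the precision.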

Additional observations from a re-analysis of the deposited data

How the results depend on the processing

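Of 547 values of single collagen genes under the alternatives, 497 kept their direction and side of the threshold, 32 lost the call, 12 gained one and 6 turned. No filter gave 3 higher collagen genes (median −0.86) and a processing median of −1.22, and a filter at the 60th percentile 0 higher and −1.91, fewer genes being tested. Of all tested genes, 5299 of 18193 were higher with no filter and 2654 of 9865 with the filter at the 60th percentile. Equal array medians gave 4 higher and −1.47, where 4620 of all 12935 tested genes were higher, with a processing median of −1.17. The probe sets were then 38 lower and 20 higher, against 40 and 9 in the fit as described. Quantile normalization gave 4 higher and −1.35 (processing −1.18), where 5116 of all 12950 tested genes were higher. Shares over all probe sets of the array under the alternatives are not given here, so the probe set counts have no such share beside them. The 40th percentile filter left 3 higher probe sets. The mean of probe sets gave a median of −1.42. The second brightest probe set gave 12 lower, 2 higher and −1.23 of 17 genes, with 25 lower and 4 higher processing genes, where 41.6% of all tested genes were lower. With the methods' t-test after Benjamini-Hochberg adjustment 19 collagen genes were lower and 1 higher, where 42.4% of all tested genes were lower. *Col4a5*, *Col6a1*, *Col11a1*, *Col13a1* and *Col15a1* lost their call in this test, and the unadjusted test lost *Col13a1* and *Col15a1*. Leaving out probe sets equal on all arrays of a dose, chosen after seeing the data, gave −1.82. Without each array in turn the medians were −1.78 to −1.15 for the collagens, −1.45 to −1.33 for the processing genes and −0.32 to −0.16 for all tested genes. Without each L-LY29 array in turn 22 to 24 collagens were lower and 1 higher, where 44.4% to 45.1% of all tested genes were lower. The processing genes were then 47 to 48 lower and 5 to 6 higher, and the probe sets 36 lower and 8 higher. Leaving out an H-LY29 array left 1 array of that dose, and calls of collagen genes were lost as given above. The collagen median was −1.15 without H-LY29 replicate 1 and −1.47 without replicate 2.

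Turned collagen values were *Col20a1* 0.20 (quantile), *Col12a1* 0.44 and *Col9a1* 1.03 (second brightest), *Col12a1* 0.62 and *Col9a3* −1.01 (without H-LY29 replicate 1) and *Col12a1* 0.26 (without H-LY29 replicate 2). Turned processing values were *P3h4* 0.25 and *Lair1* 1.62 (quantile), then *Mia3* −1.29, *Bmp1* −0.93, *Lair1* 0.50, *Timp2* −0.60, *Hspg2* −0.65 and *Lama5* −0.31 (mean of probe sets), then *Plod1* 0.027, *Bmp1* −2.03, *Ddr2* 0.27, *Lair1* 1.26, *Timp2* −1.77, *Nid1* 0.69, *Hspg2* −2.52 and *Lama5* −1.44 (second brightest), *Lair1* 1.22 and 1.31 (without H-LY29 replicate 1 and 2) and *Lama5* −1.44 (no probe sets with equal values). Without each array in turn *Col12a1* ranged from −2.55 to 0.62, *Col9a3* from −1.01 to 0 and *Lair1* from −0.27 to 1.31. Another probe set stands for the gene in these, by construction, other than under the mean of probe sets, where all are averaged, and under quantile normalization, where the cause was not tested.

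Whether the numbers of the arrays pair them was not settled. Same-numbered arrays deviated with correlations of 0.00889 and 0.0202 over genes, and arrays with crossed numbers with −0.00889 and −0.0202. With 2 H-LY29 arrays their deviations mirror each other by construction, so these values are not separate tests. With the replicate number as a block the collagen counts were again 24 lower and 1 higher (median −1.78), where 41.8% of all tested genes were lower. *Col5a3* gained the call and *Col20a1* lost it, with 36 lower and 6 higher probe sets and 49 lower and 5 higher processing genes.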

Other observations

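Proteins with a collagen-like helix but another name were lower and higher about as often as all tested genes. In a list of 35 such genes, written after the data were seen and not tested as a list, 32 were on the array and 21 were tested, of which 9 were lower in L-LY29, 5 were higher and 7 were not called, with a median difference of −0.45 (over every tested gene, 46.6% lower and 27.1% higher). *Emilin1*, an elastic fibre glycoprotein, had 5.30, 5.49 and 5.72 in L-LY29 and 8.38 and 8.35 in H-LY29 (difference −2.86), while *Emilin2* differed by −1.11 and *Emid1*, of the same group, by −0.10, which did not pass. *Cthrc1*, a secreted protein of repairing tissue, differed by −1.73. The genes named here were chosen after their values were seen. The scavenger receptors *Scara5* (−2.96) and *Scara3* (−2.33) were lower, with *Scara3* at 6.91, 4.74 and 7.22 in L-LY29. The complement C1q chains, which assemble into 1 molecule, did not move together by the probe set that stood for each. *C1qa* (1.36) and *C1qc* (0.999) were higher and *C1qb* (−1.14) was lower, each with no overlap between the doses. Whether other probe sets of these chains show the same is not given here.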
